A study of Mus musculus with 18 samples.

Results

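Glycolysis is the chain of reactions that splits glucose into pyruvate. Glucose enters cells through transporters, hexokinases trap it, phosphofructokinase commits it, and pyruvate then goes to the mitochondria or is reduced to lactate and exported. When oxygen is short, the transcription factor HIF, made of an oxygen-sensitive alpha subunit and a stable partner, binds short elements with the core RCGTG and switches on many genes of this chain together with genes for vessel growth and pH control. The colonic surface is normally poor in oxygen, so the epithelium uses this response in health as well. The 34 genes described here are 22 genes of glucose uptake, glycolysis and its lactate branch, 10 further genes of the response to low oxygen, and Hif1a and Epas1, which encode the alpha subunits HIF-1alpha and HIF-2alpha. They were chosen as a list of symbols, and all 34 were found among the 55453 gene names in the counts.

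The 18 libraries were RNA-Seq of laser-microdissected colonic epithelium from female Swiss Webster mice, all given azoxymethane (AOM), a colon carcinogen, at 7 weeks of age and then 4 cycles of 2% dextran sulfate sodium (DSS), which causes colitis, from 9 weeks. At 11 weeks the basal diet, with 2 mg/kg folic acid (FA), was exchanged for one with 8 or 0 mg/kg, which lasted 16 weeks until the colons were taken at 27 weeks. The groups were polypoid dysplasia at 8 mg/kg (8P, n = 5), polypoid dysplasia at 0 mg/kg (0P, n = 4), non-dysplastic epithelium at 8 mg/kg (8ND, n = 5) and non-dysplastic epithelium at 0 mg/kg (0ND, n = 4). Every mouse had received AOM and DSS, so none of the groups was untreated. Nothing in the labels says whether equal replicate numbers mark 1 mouse, and p-values measure only the spread between these libraries.

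Gene counts summed to 3500947 to 17048524 per library. The 12 epithelial markers were all detected and summed to 3298 to 3967 CPM (counts relative to the library's total) in 8P, 3540 to 5057 in 0P, 4003 to 5919 in 8ND and 4520 to 5824 in 0ND. Their sum was thus lower without overlap in 8P than in 8ND, while 0P and 0ND overlapped. The 10 muscle markers summed to 299.8 to 663 CPM in 8P and 420.2 to 776 CPM in 0P, against 1095 to 1864 CPM in 8ND and 1113 to 2825 CPM in 0ND, so they were lower in dysplasia with no overlap. The 8 B and plasma cell markers were also lower, at 383 to 1009 CPM in 8P and 382 to 622 CPM in 0P, against 1292 to 2475 CPM in 8ND and 726 to 1553 CPM in 0ND. The 10 fibroblast markers were higher without overlap in 0P, at 2039 to 2676 CPM, against 1360 to 1410 CPM in 0ND, while 8P (1350 to 3194 CPM) and 8ND (1663 to 1893 CPM) overlapped. The 8 markers of enteric glia and neurons were lower without overlap in 0P, at 13.9 to 20.8 CPM, against 27.3 to 35.7 CPM in 0ND, and overlapped in 8P (14.8 to 18.9 CPM) and 8ND (14.8 to 34.3 CPM). The sums for endothelium, macrophages, neutrophils, T and NK cells and red blood cells overlapped at both doses. Between doses, the fibroblast sum was also higher without overlap in 8ND than in 0ND, and all other sums overlapped within a tissue. The sums that were lower or higher without overlap move with the dysplasia and dose comparisons below, and their part in the results was not tested. In such samples fewer cells of a type and less RNA per cell cannot be told apart.

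The promoters of 4 members that the results turn on are printed to show the HIF core in them. Pfkfb3 and Slc16a3 were the glycolysis members that were higher in both dysplasia comparisons, while Pfkp was lower in both and Ldha in 8P. In GENCODE M21 on mm10, Slc16a3 spans chr11:120948480-120960868, Pfkfb3 chr2:11471433-11554077, Pfkp chr13:6579768-6648777 and Ldha chr7:46841475-46855627. Each stretch is RefSeq sequence of build GRCm38.p6, read 5′ to 3′ on the gene's strand, within 250 bases before a start site and outside annotated exons. Capitals mark ACGTG or GCGTG on either strand, and CACGTG holds ACGTG on both strands at overlapping positions.
Slc16a3, chr11:120948817-120949052, plus strand: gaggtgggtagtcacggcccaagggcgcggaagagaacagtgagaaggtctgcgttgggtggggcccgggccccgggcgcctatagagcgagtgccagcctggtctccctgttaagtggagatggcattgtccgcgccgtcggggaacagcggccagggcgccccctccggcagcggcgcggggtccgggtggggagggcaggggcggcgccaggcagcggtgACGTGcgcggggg
Pfkfb3, chr2:11502102-11502340, minus strand: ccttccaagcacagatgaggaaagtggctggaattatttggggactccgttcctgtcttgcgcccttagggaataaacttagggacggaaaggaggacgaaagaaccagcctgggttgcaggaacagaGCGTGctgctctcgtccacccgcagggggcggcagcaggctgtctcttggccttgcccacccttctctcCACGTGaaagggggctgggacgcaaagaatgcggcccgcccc
Pfkp, chr13:6648778-6649021, minus strand: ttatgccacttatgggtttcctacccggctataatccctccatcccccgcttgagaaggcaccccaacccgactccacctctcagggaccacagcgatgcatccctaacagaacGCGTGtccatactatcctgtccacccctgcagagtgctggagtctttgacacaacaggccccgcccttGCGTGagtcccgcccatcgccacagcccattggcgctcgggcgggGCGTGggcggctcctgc
Ldha, chr7:46845554-46845803, plus strand: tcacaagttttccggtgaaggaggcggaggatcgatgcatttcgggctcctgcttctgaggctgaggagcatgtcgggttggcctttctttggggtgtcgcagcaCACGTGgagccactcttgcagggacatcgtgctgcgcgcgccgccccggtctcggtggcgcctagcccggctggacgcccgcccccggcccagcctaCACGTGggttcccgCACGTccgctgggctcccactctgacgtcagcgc
Of the 34 members, 32 had a promoter in the RefSeq table (the others are Epas1 and Ndrg1), with 48 windows in all. A core was present in 79.2% of these windows, against 38.6% of all 32851 windows. By gene, 29 of 32 members had a core in at least 1 window, against 41.5% of all genes. The members were picked as glycolysis and hypoxia-response genes, so a high share may follow from that choice, which was not tested. Members also had more windows per gene, with 48 for 32 genes against 32851 for 27025 genes, which raises the share by gene. Both shares count cores in the whole windows, exon bases included, unlike the printed stretches. The core was thus present both in members that were higher and in members that were lower in dysplasia. These matches are descriptions of the letters and not binding sites.

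Dysplasia was compared with non-dysplastic epithelium at each dose. Levels are CPM scaled by TMM, a library scaling factor, and fold changes are log2 values ± SE from edgeR's quasi-likelihood test, adjusted over 20787 tested genes, all 34 members among them. In 8P vs 8ND, 13 members passed an adjusted p of 0.05, which is 38.2% of the members against 28.2% of all tested genes. Only 3 of the 13 were higher (8.82% of members, against 13.9% of all genes) and 10 were lower (29.4%, against 14.3%). In 0P vs 0ND, 12 members passed (35.3%, against 31.6% of all genes), with 2 higher (5.88%, against 15.9%) and 10 lower (29.4%, against 15.7%). The median log2 fold change of the members was -0.27 in 8P vs 8ND and -0.24 in 0P vs 0ND, beside 0.00 and -0.03 for all tested genes. The 0P vs 0ND median was -0.13 without 0ND 2, -0.15 without 0P 3 and -0.15 with limma-voom. In 8P vs 8ND the groups of 3 members did not overlap and were higher (8.26% of all tested genes were such) and those of 7 were lower (8.94% of all). In 0P vs 0ND these were 2 members higher (16.2% of all genes) and 12 lower (16.1% of all). The 2 comparisons share no library, and 8 members were called in the same direction in both, which is 61.5% of the 13 and 66.7% of the 12, beside 70.3% and 62.9% for all called genes.

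**Figure D1:**
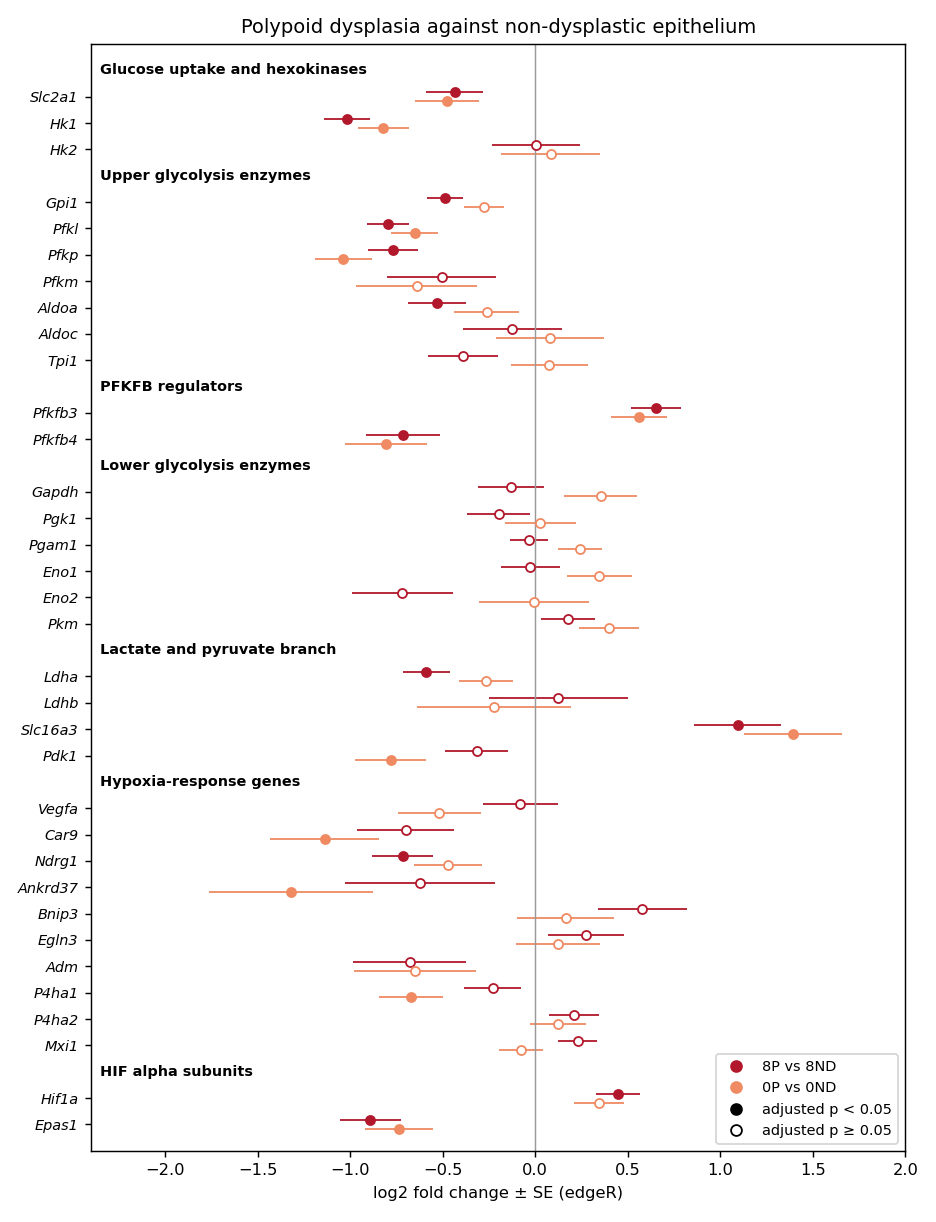
Log2 fold change ± SE of the 34 members by role, with 8P vs 8ND in dark red and 0P vs 0ND in orange, filled where the adjusted p was under 0.05. Slc16a3 is farthest to the right, at 1.09 and 1.39, and Hk1, Pfkl, Pfkp, Pfkfb4 and Epas1 lie left of 0 in both comparisons.

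Of the 3 genes of glucose uptake and hexokinases, Slc2a1 and Hk1 fell at each dose and Hk2 did not pass. Of all tested genes, 14.3% were called lower in 8P vs 8ND and 15.7% in 0P vs 0ND. Hk1, a hexokinase that traps glucose in many tissues, had 49.0, 61.3, 46.1, 48.7 and 50.1 CPM in 8P, against 98.5, 91.8, 131, 89.4 and 106 CPM in 8ND. It had 76.1, 67.4, 55.5 and 62.8 CPM in 0P, against 98.4, 135, 107 and 124 CPM in 0ND. Every dysplasia library lay below every non-dysplastic one at its dose, and the log2 fold changes were -1.02 ± 0.12 (edgeR adjusted p = 1.4e-05) and -0.82 ± 0.14 (adjusted p = 0.00016). Hk2, a hexokinase often raised in tumors, averaged 163 ± 49.3 CPM in 8P and 162 ± 38.5 CPM in 8ND, and 163 ± 43.6 CPM in 0P and 155 ± 51.7 CPM in 0ND (SD). Its log2 fold changes were 0.00 ± 0.24 and 0.08 ± 0.27, so no difference beyond the spread was seen. Slc2a1, the glucose transporter GLUT1, fell by 0.44 ± 0.16 in 8P vs 8ND and by 0.48 ± 0.17 in 0P vs 0ND on the log2 scale (adjusted p = 0.042 in each). Its call passed under only 9 of 19 and 9 of 17 alternative settings.

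Calls among the upper glycolysis enzymes were all downward. In 8P vs 8ND, 4 of 7 fell (Gpi1, Pfkl, Pfkp and Aldoa), where 14.3% of all tested genes were called lower. In 0P vs 0ND 2 of 7 fell (Pfkl and Pfkp), where 15.7% of all genes were called lower and 31.6% in either direction, so the count for 0P is near the background. Pfkl, the liver-type subunit of phosphofructokinase, had 40.3, 47.7, 43.3, 42.1 and 40.9 CPM in 8P, against 63.2, 71.5, 82.5, 75.1 and 79.4 CPM in 8ND. In 0P it had 58.1, 56.2, 42.4 and 54.0 CPM, against 72.6, 94.1, 70.6 and 94.8 CPM in 0ND. The groups did not overlap at either dose, with log2 fold changes of -0.80 ± 0.11 (adjusted p = 5.1e-05) and -0.65 ± 0.13 (adjusted p = 0.00054). Pfkp, the platelet-type subunit, had 87.4, 73.7, 114, 85.4 and 82.0 CPM in 8P, against 151, 155, 164, 122 and 160 CPM in 8ND. It had 110, 91.8, 73.9 and 64.8 CPM in 0P, against 160, 178, 183 and 177 CPM in 0ND. These too did not overlap, at -0.77 ± 0.14 (adjusted p = 0.00035) and -1.04 ± 0.15 (adjusted p = 4.4e-05). Gpi1, which turns glucose 6-phosphate into fructose 6-phosphate, fell by 0.49 ± 0.10 in 8P (adjusted p = 0.001), and its value was -0.28 ± 0.11 in 0P (adjusted p = 0.060). Aldoa, an aldolase, fell by 0.53 ± 0.16 in 8P (adjusted p = 0.015), and its value was -0.26 ± 0.17 in 0P. Pfkm, Aldoc and Tpi1 did not pass at either dose, with log2 values between -0.64 and 0.08.

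The enzymes that set the level of fructose 2,6-bisphosphate, the strongest activator of phosphofructokinase, split. Pfkfb3, whose enzyme mainly makes this activator, had 50.1, 47.4, 49.2, 48.0 and 43.0 CPM in 8P, against 27.9, 31.1, 34.1, 28.7 and 29.2 CPM in 8ND. It had 40.6, 34.8, 40.2 and 45.3 CPM in 0P, against 36.6, 21.1, 30.3 and 20.5 CPM in 0ND. The 8P and 8ND libraries did not overlap, while 0P 2 lay below 0ND 1, and Pfkfb3 rose by 0.65 ± 0.14 (adjusted p = 0.0015) and 0.56 ± 0.15 (adjusted p = 0.0083). Pfkfb4, a close relative, had 10.6, 15.6, 8.5, 7.93 and 9.25 CPM in 8P, against 18.5, 19.4, 19.4, 9.85 and 16.9 CPM in 8ND. In 0P it had 11.9, 10.4, 10.3 and 10.1 CPM, against 17.5, 22.9, 14.0 and 20.3 CPM in 0ND. It fell by 0.72 ± 0.20 (adjusted p = 0.011) and 0.81 ± 0.22 (adjusted p = 0.0087). Its call in 8P vs 8ND was lost without both 8ND 1 and 8ND 2 (adjusted p = 0.076).

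**Figure D2:**
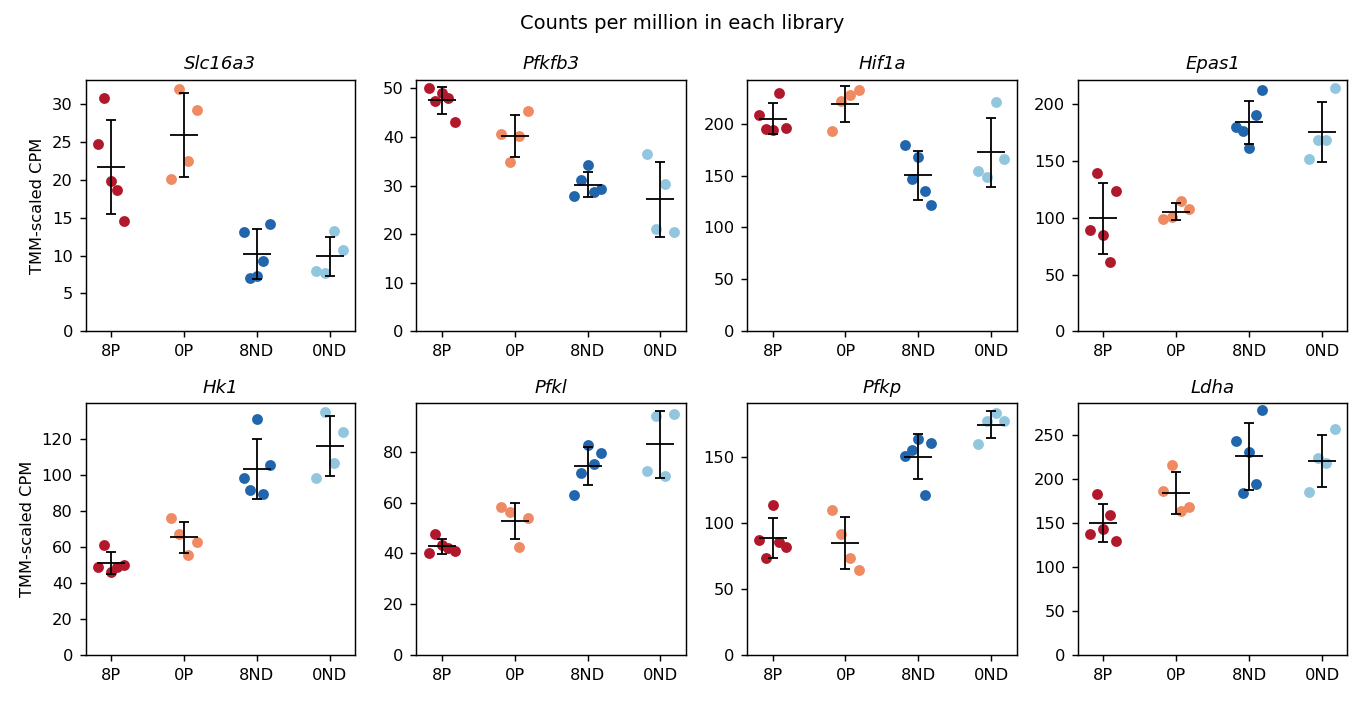
TMM-scaled CPM of 8 members in each of the 18 libraries, with bars at the mean ± SD of each group. Slc16a3, Pfkfb3 and Hif1a sit higher in 8P and 0P, and Epas1, Hk1, Pfkl, Pfkp and Ldha sit lower, with overlap of 0P and 0ND for Pfkfb3, Hif1a and Ldha.

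The lower glycolysis enzymes, from Gapdh to Pkm, had no call among 6 members at either dose. Of all tested genes, 28.2% were called in 8P vs 8ND and 31.6% in 0P vs 0ND. With so few members, the count is no result about the group. Gapdh, often used as a reference gene, had 77.8, 127, 66.3, 86.4 and 66.4 CPM in 8P, against 83.3, 75.0, 111, 79.3 and 115 CPM in 8ND, and the groups overlapped. In 0P it had 96.3, 117, 112 and 92.1 CPM, against 66.0, 102, 69.3 and 90.0 CPM in 0ND. Pkm, pyruvate kinase, did not overlap in 0P vs 0ND, where its value was 0.40 ± 0.16 (adjusted p = 0.067). Eno2, the neuronal enolase, was at -0.72 ± 0.27 in 8P vs 8ND (adjusted p = 0.054). Reads without a unique position were not counted, and many of these genes have processed copies. Stretches of 50 bases shared with other transcripts made up 53.9% of Pgk1, 36.2% of Pgam1, 25.99% of Eno1, 25.8% of Pkm and 24.7% of Gapdh, so the levels of these genes are uncertain. Some members also share exon bases with a gene on the other strand, such as Hk1 with Hk1os, Pfkp with Pitrm1 and Hif1a with Gm15283, and whether the counting used strand is not given in the sources used here. Hif1a with Gm49321, Pkm with Gm49759 and Pfkm with Gm26513 share exon bases on the same strand, which no strand setting separates. No 50-base stretch was shared with other transcripts by Hk1, Hk2, Pfkp or Slc16a3.

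At the lactate branch the exporter was higher while the enzyme that makes lactate was not. Slc16a3, the lactate exporter MCT4, had 24.7, 30.8, 19.9, 18.7 and 14.5 CPM in 8P, against 13.1, 7.03, 7.28, 9.32 and 14.2 CPM in 8ND. In 0P it had 20.1, 32.0, 22.6 and 29.2 CPM, against 7.94, 7.74, 13.2 and 10.7 CPM in 0ND. Every dysplasia library was above every non-dysplastic one at its dose, and the log2 fold changes were 1.09 ± 0.24 (adjusted p = 0.0019) and 1.39 ± 0.26 (adjusted p = 0.00047). Ldha, the lactate dehydrogenase subunit that favors lactate, had 137, 183, 144, 159 and 129 CPM in 8P, against 243, 184, 230, 194 and 278 CPM in 8ND, and fell by 0.59 ± 0.13 (adjusted p = 0.002). In 0P vs 0ND its value was -0.27 ± 0.14 (adjusted p = 0.17). Ldhb did not pass at either dose and stayed under 6 CPM in every library. Pdk1, a kinase that holds pyruvate out of the mitochondria, had 41.3, 39.7, 27.5 and 33.99 CPM in 0P, against 49.4, 55.4, 75.1 and 65.9 CPM in 0ND, and fell by 0.78 ± 0.19 (adjusted p = 0.0037). In 8P vs 8ND Pdk1 was at -0.32 ± 0.17 (adjusted p = 0.18).

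Few hypoxia-response genes were called. In 8P vs 8ND 1 of 10 fell, where 14.3% of all genes were called lower and 28.2% in either direction. In 0P vs 0ND 3 of 10 fell, where these shares were 15.7% and 31.6%, and none of the 10 rose at either dose. The calls are thus values of single genes and not a result about the group. Ndrg1, a stress-induced gene linked to differentiation, had 43.6, 45.4, 26.2, 26.4 and 46.4 CPM in 8P, against 60.1, 55.5, 56.3, 58.6 and 77.6 CPM in 8ND, and fell by 0.72 ± 0.16 (adjusted p = 0.0029). Its groups did not overlap in 0P vs 0ND either, at -0.47 ± 0.18 (adjusted p = 0.055), and it passed there under 7 of 17 alternative settings. Car9, a carbonic anhydrase widely used as a hypoxia marker, had 10.7, 9.28, 4.65 and 3.54 CPM in 0P, against 15.1, 15.3, 17.7 and 14.1 CPM in 0ND, and fell by 1.14 ± 0.29 (adjusted p = 0.0056). In 8P vs 8ND it was at -0.70 ± 0.26 (adjusted p = 0.051). P4ha1, a collagen prolyl hydroxylase subunit, had 36.5, 27.1, 22.7 and 29.2 CPM in 0P, against 39.6, 41.5, 58.2 and 45.2 CPM in 0ND, and fell by 0.67 ± 0.17 (adjusted p = 0.005). Ankrd37 had 5.62, 5.83, 3.15 and 5.95 CPM in 0P, against 9.02, 8.09, 25.1 and 9.72 CPM in 0ND. It fell by 1.32 ± 0.44 (adjusted p = 0.029), but 0ND 3 stands far above the others, and without it the value was -0.79 and the call was lost. The call passed under 10 of 17 alternative settings. Vegfa, the main vessel growth factor, was at -0.08 ± 0.20 (adjusted p = 0.80) and -0.52 ± 0.23 (adjusted p = 0.089). Bnip3, Egln3, Adm, P4ha2 and Mxi1 did not pass at either dose, with log2 values from -0.68 to 0.58.

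The alpha subunits moved apart in 8P vs 8ND. Hif1a had 208, 195, 194, 229 and 196 CPM in 8P, against 179, 147, 168, 135 and 121 CPM in 8ND, with no overlap, and rose by 0.45 ± 0.12 (adjusted p = 0.0084). In 0P it had 193, 222, 228 and 233 CPM, against 154, 148, 221 and 166 CPM in 0ND, a log2 value of 0.34 ± 0.13 (adjusted p = 0.055). The 0P vs 0ND value passed under 5 of 17 alternative settings, with DESeq2's size factors (adjusted p = 0.043), with DESeq2 (0.035), with limma-voom (0.039), without 0ND 3 (0.0076) and without 0P 1 (0.039). Epas1 had 89.2, 139, 84.6, 60.8 and 123 CPM in 8P, against 180.0, 177, 162, 190.3 and 213 CPM in 8ND. It had 98.6, 100.4, 115 and 108 CPM in 0P, against 152, 169, 169 and 214 CPM in 0ND. Its groups did not overlap at either dose, and it fell by 0.89 ± 0.17 (adjusted p = 0.00055) and 0.74 ± 0.19 (adjusted p = 0.0046). HIF alpha subunits are controlled mainly through their breakdown, so the RNA level is not the protein level.

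Ratios within a library do not depend on scaling, and 9 ratios of related members were computed. The log2 ratio of Hif1a to Epas1 counts averaged 1.10 in 8P and 1.05 in 0P, against -0.30 in 8ND and -0.03 in 0ND. The log2 ratio of Pfkfb3 to Pfkfb4 averaged 2.23 in 8P and 1.91 in 0P, against 0.88 in 8ND and 0.52 in 0ND. For Hk2 to Hk1 the means were 1.63 in 8P and 1.29 in 0P, against 0.63 in 8ND and 0.36 in 0ND. None of these 3 ratios overlapped between dysplasia and non-dysplastic epithelium at either dose. P4ha1 to P4ha2 was lower in 8P, at 1.07, than in 8ND, at 1.50, without overlap, while 0P and 0ND overlapped. The other 5 ratios, Pfkp to Pfkl, Pfkp to Pfkm, Aldoa to Aldoc, Eno1 to Eno2 and Ldha to Ldhb, overlapped at both doses. These ratios are descriptions with no test, and the share of other gene pairs free of overlap was not computed. They are made from the same counts as the member values above, so they are not further evidence.

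**Figure D3:**
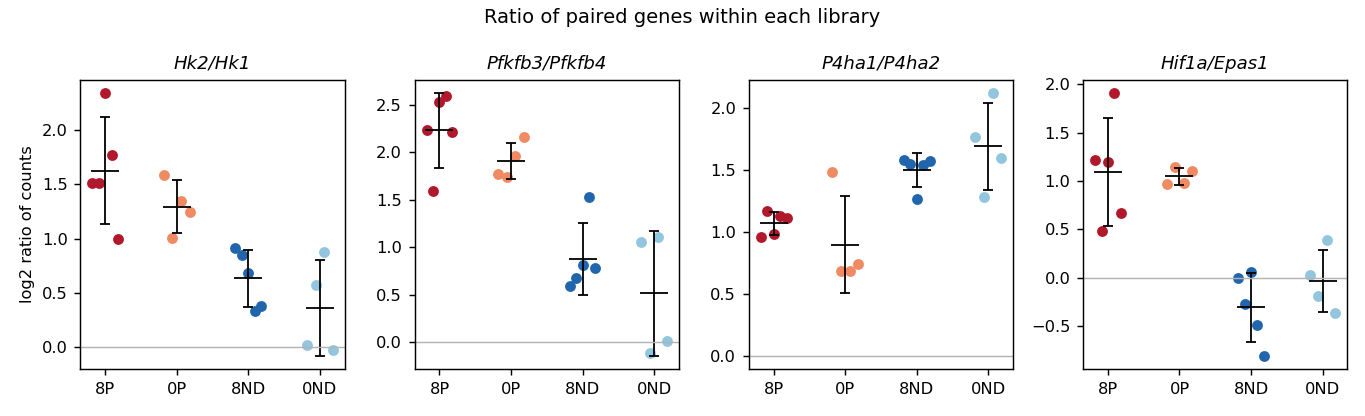
Log2 ratio of the counts of 2 related genes in each library, with bars at the mean ± SD of each group. For Hk2/Hk1, Pfkfb3/Pfkfb4 and Hif1a/Epas1 all 9 dysplasia libraries sit above the non-dysplastic libraries of their dose.

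Per kilobase of exon, counting only reads with a unique position, the 3 highest members in every group were Pkm, Ldha and Aldoa. Exon length here is that of all annotated exons of a gene joined, so the order between genes depends on the annotation. Pkm led in 8P (52.6 CPM per kb) and 0P (70.7 CPM per kb), and Ldha led in 8ND (68.2 CPM per kb) and 0ND (66.7 CPM per kb). Pgam1 (37.4 CPM per kb) and Pgk1 (36.9 CPM per kb) came next in 8P, and since much of both is shared with other transcripts, as given above, their place in this order is uncertain. Of Pkm 25.8% is shared, so its place is uncertain too. The same holds for Gapdh, with 24.7% shared, which ranked 9 in 8P, 9 in 0P, 11 in 8ND and 12 in 0ND. Eno2 was lowest of the 34 in each group.

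Folic acid dose was compared within each tissue. The fibroblast markers were higher without overlap in 8ND than in 0ND, as given above, and their part in these values was not tested. No member passed in 8P vs 0P or in 8ND vs 0ND by edgeR, DESeq2 or limma-voom. Over all 20787 genes in 8P vs 0P, edgeR called 0 (0%), DESeq2 12 and limma-voom 0. In 8ND vs 0ND edgeR called 10 genes (0.0481%), DESeq2 309 and limma-voom 4. At an unadjusted p of 0.05, 7 members were lower and none higher in 8P vs 0P (20.6% of members, against 10.1% of all genes), and 2 were lower in 8ND vs 0ND (5.88%, against 9.91%). The 7 were Hk1, Pfkl, Tpi1, Eno2, Pkm, Ldha and Ndrg1. Pkm had 246, 319.8, 227, 322 and 199.7 CPM in 8P, against 354, 384, 321 and 355 CPM in 0P, at -0.43 ± 0.15 (edgeR adjusted p = 0.46). Hk1 was at -0.36 ± 0.13 (adjusted p = 0.46) and Ndrg1 at -0.44 ± 0.17 (adjusted p = 0.47). In 8ND vs 0ND the smallest p was that of Bnip3, a mitophagy receptor, with 14.2, 6.56, 9.74, 7.19 and 14.1 CPM in 8ND, against 12.9, 21.8, 24.6 and 14.5 CPM in 0ND. Its value was -0.81 ± 0.25 (adjusted p = 0.23), and the groups overlapped. Pdk1, with 62.5, 40.2, 51.7, 34.6 and 45.6 CPM in 8ND against the 0ND values above, was at -0.38 ± 0.18 (adjusted p = 0.50), and Ankrd37 was at -0.83 ± 0.42 (adjusted p = 0.54), or -0.30 without 0ND 3. No member's groups were free of overlap in 8P vs 0P (1.36% of all genes were higher and 0.89% lower in this way) or in 8ND vs 0ND (2.15% higher and 1.8% lower).

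**Figure D4:**
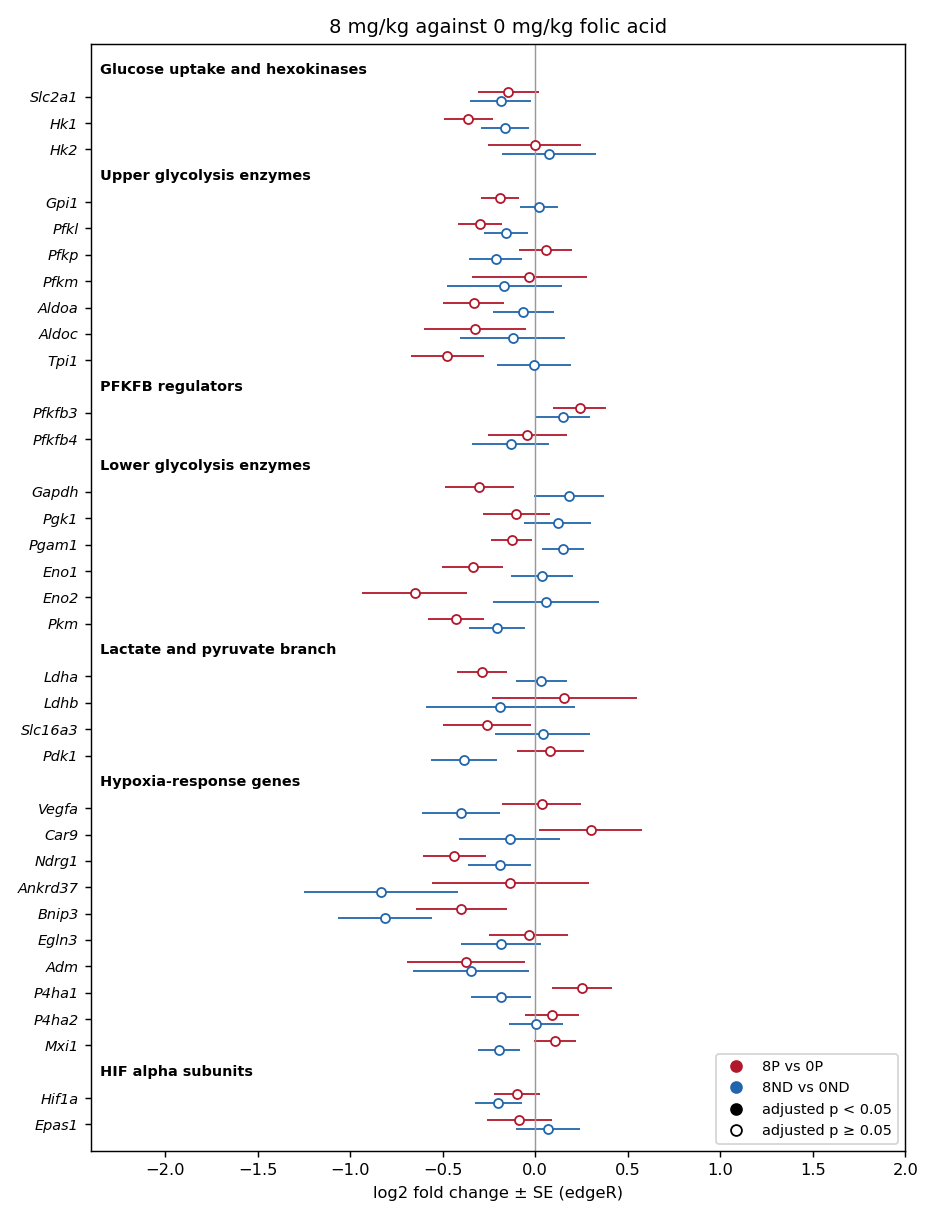
Log2 fold change ± SE of the 34 members at 8 against 0 mg/kg folic acid, in dysplasia (8P vs 0P, red) and non-dysplastic epithelium (8ND vs 0ND, blue). All points are open because none passed, and in 8P vs 0P 25 of 34 lie below 0, where 50.7% of all tested genes lie above 0. The members' median was -0.13 in 8P vs 0P and -0.15 in 8ND vs 0ND, and these directions were not tested.

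The difference between the dysplasia effects at the doses was tested as an interaction. None of the 34 members passed by edgeR, DESeq2 or limma-voom, and none had in edgeR an unadjusted p under 0.05, against 10.4% of all genes. The smallest p-values were those of P4ha1 (0.44 ± 0.23, adjusted p = 0.51), Mxi1, a Myc antagonist (0.31 ± 0.16, adjusted p = 0.52), and Gapdh (-0.49 ± 0.27, adjusted p = 0.53). Mxi1 had 60.9, 51.6, 77.0, 63.8 and 58.8 CPM in 8P, against 52.7, 59.7, 46.7, 49.8 and 57.3 CPM in 8ND. It had 57.1, 63.9, 53.6 and 56.9 CPM in 0P, against 59.0, 54.9, 65.0 and 65.4 CPM in 0ND. Calls made at 1 dose and not at the other, such as those of Ldha, Car9 and Pdk1, were therefore not shown to differ between doses.

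Genes around the pathway were read from 8 further lists. Their counts stand beside 13.9% of all tested genes called higher and 14.3% lower in 8P vs 8ND (28.2% together), and 15.9% higher and 15.7% lower in 0P vs 0ND (31.6% together). Among other sugar transporters and glycolysis isoforms, 1 of 17 tested genes rose and 7 fell in 8P vs 8ND, and 3 rose and 7 fell in 0P vs 0ND. Slc5a1, a sodium-coupled glucose transporter, fell by 1.14 ± 0.19 (adjusted p = 0.00022) and 1.58 ± 0.21 (adjusted p = 2.1e-05). Slc16a1, the transporter MCT1 that carries butyrate and lactate, averaged 48.8 ± 12.3 CPM in 8P and 101 ± 11.9 CPM in 8ND, and 47.7 ± 11.0 CPM in 0P and 132 ± 34.9 CPM in 0ND (SD). It fell by 1.05 ± 0.18 and 1.46 ± 0.21, opposite to Slc16a3. Of 19 genes of pyruvate entry and gluconeogenesis, 2 rose and 5 fell in 8P vs 8ND, and 2 rose and 7 fell in 0P vs 0ND. Pck1, the rate-limiting enzyme of gluconeogenesis, averaged 4.71 ± 3.35 CPM in 8P and 58.0 ± 21.3 CPM in 8ND, and 6.81 ± 4.53 CPM in 0P and 82.7 ± 38.8 CPM in 0ND (SD). It fell by 3.61 ± 0.51 (adjusted p = 9.0e-05) and 3.60 ± 0.56 (adjusted p = 0.00015). Mpc2, a subunit of the mitochondrial pyruvate carrier, fell by 0.47 ± 0.10 and 0.67 ± 0.11, whereas Pdk4, another kinase that blocks pyruvate entry, rose by 2.03 ± 0.41 (adjusted p = 0.0015) and 2.68 ± 0.48 (adjusted p = 0.0004). Among 17 genes of the pentose phosphate pathway and glycogen, 6 fell in 8P vs 8ND, and 2 rose and 2 fell in 0P vs 0ND, a smaller share than that of all genes. Ugp2, which makes UDP-glucose, fell by 0.68 ± 0.12 and 0.84 ± 0.14, and Gyg, the primer of glycogen, fell by 0.77 ± 0.15 in 8P vs 8ND. G6pdx, the first enzyme of the pentose phosphate pathway, rose by 0.71 ± 0.17 in 0P vs 0ND (adjusted p = 0.0027).

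Of 15 HIF partners and oxygen sensors, 1 rose and 3 fell in 8P vs 8ND, and 3 rose and 2 fell in 0P vs 0ND, both near the shares of all genes called (28.2% and 31.6%). Arnt2, a partner of HIF alpha best known in neurons, rose by 1.72 ± 0.37 (adjusted p = 0.0019) and 2.92 ± 0.44 (adjusted p = 6.9e-05). Hif3a, whose product can oppose the other alpha subunits, fell by 1.41 ± 0.22 and 1.67 ± 0.24, and Cited2, which competes with HIF for its coactivator, fell by 0.68 ± 0.14 and 0.96 ± 0.16. Of 36 other hypoxia targets, 6 rose and 8 fell in 8P vs 8ND, and 10 rose and 9 fell in 0P vs 0ND, so calls went in both directions. Higd1a, a mitochondrial protein, fell by 1.34 ± 0.14 (adjusted p = 4.2e-06) and 1.43 ± 0.15 (adjusted p = 2.8e-06). Ier3, an early-response gene, rose by 1.42 ± 0.30 and 2.79 ± 0.35, and Rab11fip4, an effector of Rab11, fell by 1.09 ± 0.18 and 1.51 ± 0.20. The study also singled out Rab11fip4 from these libraries, so it is not independent evidence. Of 8 tested iron genes, a list meant to cover HIF-2 targets in the intestine, 2 were called at each dose. This is a smaller share than that of all genes, so the count is no result about the list. The 2 called were Slc40a1, the iron exporter ferroportin, which fell by 0.83 ± 0.23 and 1.82 ± 0.27, and Heph, its partner oxidase, which fell by 0.76 ± 0.23 and 1.32 ± 0.26. Of 14 genes of the Myc, Max and Mondo network, 3 rose and 8 fell in 8P vs 8ND, and 2 rose and 7 fell in 0P vs 0ND. Myc rose by 0.73 ± 0.14 (adjusted p = 0.0008) and 1.50 ± 0.16 (adjusted p = 2.8e-06), while its antagonist Mxd1 fell by 1.57 ± 0.19 and 1.91 ± 0.22. Txnip, an inhibitor of glucose uptake that follows glucose levels, fell by 1.09 ± 0.17 (adjusted p = 0.00014) and 1.64 ± 0.20 (adjusted p = 7.5e-06). The 2 tested close copies of members had no call.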

How the data were processed

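The deposited files held raw read counts per gene, 1 file for each of the 18 libraries. Libraries were made with a stranded low-input kit from 40 ng of RNA of formalin-fixed, laser-microdissected tissue. Per the submitters' notes and the study's methods, the authors aligned reads with Bowtie to mm10 and counted them with HTSeq, with versions and strand setting not given in the sources used here. Reads with no gene or no unique position were kept out of totals. Those without a unique position made up 40.1 to 62.2% of the reads listed, and PCR copies cannot be told from molecules. The 32 pairs of libraries within a group all differed beyond sampling noise, so none was counted as a repeat.

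The test was edgeR 4.0.16 in R 4.3.3 (filterByExpr by group, minimum count 10, TMM, robust quasi-likelihood fit, 1 mean per group, all 18 libraries), which left 20787 genes. Adjustment (Benjamini-Hochberg) ran over all of them, and SE is the size of the log2 fold change over the square root of F. The code was tested on simulated data. Isozyme ratios used a pseudocount of 0.5. Alternatives were other scalings, DESeq2 1.42.0, limma-voom (limma 3.58.1), other filters (minimum count 30, or none), libraries left out, only the groups compared, and the replicate number as a block. Gene positions came from GENCODE M21.

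The members and lists were chosen with earlier results of these data known. Values per library are given for the called members with the 5 largest positive and 5 largest negative log2 values in each dysplasia comparison, the 3 smallest p-values in the others, and Hif1a and Epas1. Up to 3 genes of each further list with the smallest p were named. A gene this takes is not reported here.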

Additional observations from a re-analysis of the deposited data

Results flagged for a closer look

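In 10 of 136 sets of 1 member in 1 group, 1 library lay far from the rest of its group by Dixon's criterion, which chance gives in about 1 of 20 sets. Hk1 was highest in 8P 2 (61.3 CPM, next 50.1). Hk2 was highest in 0P 1 (228 CPM, next 149), as was Pfkfb4 (11.9 CPM, next 10.4). Pfkfb4 was lowest in 8ND 4 (9.85 CPM, next 16.9), the library with the smallest total. Tpi1 was lowest in 0P 4 (69.0 CPM, next 81.3), Pgam1 in 8ND 2 (62.8 CPM, next 78.0) and Vegfa in 8P 4 (41.7 CPM, next 61.1). Ndrg1 was highest in 8ND 5 (77.6 CPM, next 60.1). Ankrd37 was lowest in 0P 3 (3.15 CPM, next 5.62) and highest in 0ND 3 (25.1 CPM, next 9.72).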

How the results depend on the processing

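The count of members called stayed within 1.5 times its value under every alternative, at 11 to 15 in 8P vs 8ND, 10 to 15 in 0P vs 0ND and 0 in the dose comparisons and the interaction, and no called value changed sign (values without a call were not scored for sign). With single libraries left out it was 12 to 15 and 10 to 15, and without both 8ND 1 and 8ND 2 it was 11 in each. On the first principal component, the axis of largest spread between libraries, 8ND 1 was at -27.8 and 8ND 2 at -27.9. The other non-dysplastic libraries lay between -82.8 and -48.6, and the dysplasia libraries between 30.5 and 75.6. The members' median in 0P vs 0ND ranged from -0.29 to -0.13 with single libraries left out. Near the threshold, Slc2a1 and Ankrd37 lost their calls under several settings, Ankrd37 with adjusted p up to 0.176. With the replicate number as a block, 12 members were called in 8P vs 8ND and 12 in 0P vs 0ND, but Aldoa in 8P vs 8ND (adjusted p = 0.052) and Ankrd37 in 0P vs 0ND (0.083) lost their calls and Ndrg1 gained one in 0P vs 0ND. Deviations of same-numbered libraries correlated at -0.08 to 0.27 for 8P and 8ND (2 of 5 best with their own number). For 0P and 0ND they correlated at 0.03 to 0.20 (3 of 4). Between doses, where the mice differ, the values were -0.21 to -0.05 for 8ND and 0ND (0 of 4). For 8P and 0P they were -0.18 to 0.24 (1 of 4). These values do not settle whether equal numbers pair samples within a dose, and the main test used no block. In 8ND vs 0ND the genes of the further lists called were 0, but 8 with DESeq2, 3 without a low-count filter, 1 with a minimum count of 30, and 0 to 6 with a library left out (6 without 8ND 3). DESeq2 called 1 of them in the interaction. Over all genes, DESeq2 called 309 and edgeR 10 in 8ND vs 0ND, 12 and 0 in 8P vs 0P, and 69 and 0 in the interaction. Counting depth limits members under 10 CPM most, such as Ldhb, Eno2 and Adm. It also bears on the calls of Car9 and Ankrd37 in 0P vs 0ND. Car9 had 34 counts in 0P 3 and 57 in 0P 4, and Ankrd37 had 23 counts in 0P 3.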
